A study of Mus musculus with 6 samples.

Results

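Chromatin accessibility was examined at 10 genes grouped as brakes on RAS-ERK signalling in T cells, although Dusp10 acts mainly on other kinases. They include the Sprouty-related genes Spry1, Spry2 and Spred1, and the RAS GTPase-activating protein genes Rasa2 and Rasa3. The others are the dual-specificity phosphatase genes Dusp2, Dusp4, Dusp5, Dusp6 and Dusp10. Regions of the deposited count table (GRCm38) belong to a member if their middle lies inside that gene. Intergenic ones belong to it if it is the nearest protein-coding gene within 100 kb. This rule gave 131 of 74686 regions, at 10 of the 15612 genes with a region. It goes by position, and whether a region acts on the gene it is assigned to was not tested. The assay was ATAC-seq, in which a transposase inserts adapters into open DNA. The sorted population was the OT1 cells, CD8 T cells with an ovalbumin-specific transgenic receptor, gated on CD8 and CD45.1 (a congenic mark) out of B16-OVA-GP61 melanomas, which carry ovalbumin and the GP61 epitope. For 3 libraries SMARTA cells, transgenic CD4 T cells specific for GP61, were absent, and for 3 they were present. Both groups therefore share the tumor line and the OT1 cells, and differ by label in the SMARTA cells alone. The sources used here do not give host strain, age, cell doses or time of sorting. Nor do they say whether each library came from 1 animal, so the p-values rest on a spread between libraries that may be technical.

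The T cell receptor loads RAS with GTP, and RAS then drives a kinase chain that ends in ERK. Brakes act at every step. Sprouty and Spred proteins interfere with the activation of RAS and the kinases below it, RASA proteins speed the hydrolysis of GTP on RAS, and dual-specificity phosphatases remove phosphate from ERK and its relatives. Many of these genes are themselves induced by ERK, which makes them feedback regulators, and they are often read as marks of recent or chronic receptor signalling.

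Of the 131 regions, 31 closed and 5 opened with SMARTA cells (edgeR's quasi-likelihood test over all 74686 regions, Benjamini-Hochberg adjusted p under 0.05), and 95 did not pass. Closed means lower counts with SMARTA cells and opened means higher. Over all regions 15.1% passed, 10.4% closed and 4.68% opened, and among the members' regions 27.5% passed, 23.7% closed and 3.82% opened. The median log2 fold (with SMARTA cells minus without) was -0.28 over the members' regions and 0.01 over all regions, and 72.5% of the members' folds were negative against 48.8% of all. Closed regions lay at 9 of the 10 genes. At 7 of them no region opened, Rasa3 and Dusp10 held both kinds, and Dusp2 held 1 opened region and no closed one. For comparison, 51.1% of genes with at least 5 regions held a closed region and 36.6% held closed regions without opened ones. Of all genes with a region 23.3% held a closed one, so the share rises with the number of regions. The members held 7 to 23 regions each, so the comparison is not like for like. Lower accessibility can mean fewer cells with an open site or less opening per cell, which cannot be told apart in bulk libraries. Leaving out 1 library lowered the 31 closed regions to 18 (when replicate 2 or 3 lacking SMARTA cells was dropped) and the 5 opened ones to 1 (when replicate 1 or 3 of that group was dropped).

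**Figure D1:**
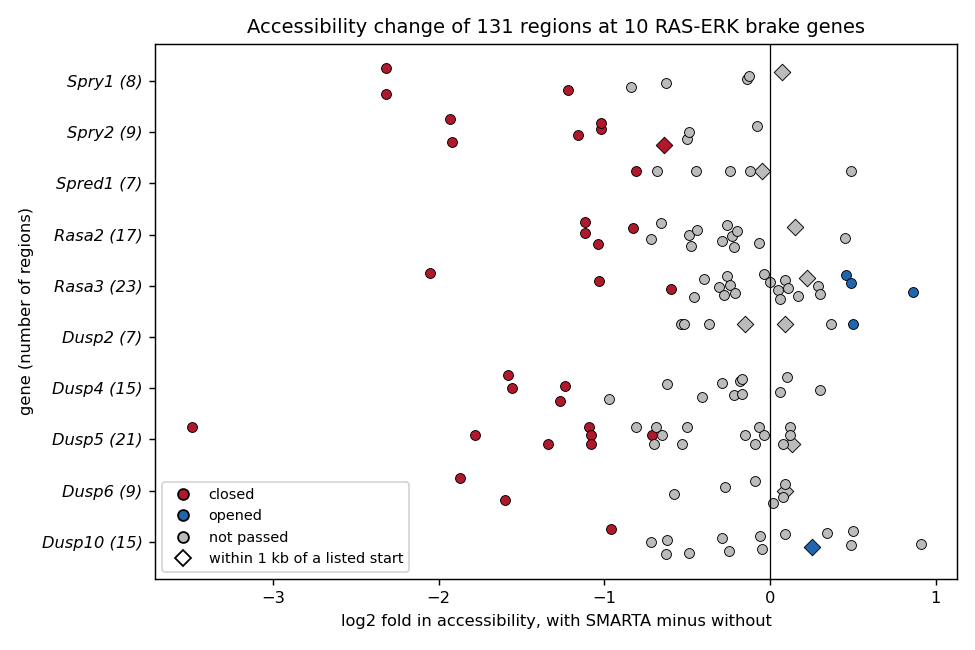
Each point is 1 region, placed by its log2 fold in accessibility (with SMARTA cells minus without, x axis) in the row of its gene, with the number of regions of the gene in brackets. Red regions closed, blue ones opened and grey ones did not pass; diamonds lie within 1 kb of a listed transcription start, and 8 of those 10 did not pass.

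Most of the regions that passed lay beyond 1 kb from a listed start, as did all but 10 of the 131 regions. Of 78 intergenic regions 24 closed (30.8%) and 1 opened, where 12.3% of all intergenic regions closed and 4.22% opened. Dusp4, with no listed start, adds no region to the start class. Of 43 regions inside the genes and beyond 1 kb from a start, 6 closed and 3 opened, and 11.3% of all such regions closed and 4.66% opened. Split by the assignment alone, 6 of 45 regions inside a gene body closed (9.9% of all such regions) and 25 of 86 assigned to a neighbour did (10.3%). Within 1 kb of a start lay 10 regions, of which 1 closed and 1 opened. Their folds ran from -0.64 at Spry2 to 0.25 at Dusp10, with a median of 0.09 that equals the median over all 10548 regions within 1 kb of a start, of which 2.23% closed and 6.0% opened. Levels are in log2 CPM, counts scaled to library size, on a log2 scale with a prior count of 2. Averaged over all 6 libraries, the median level was 1.91 in closed regions and 2.75 in those that did not pass. That average includes the libraries with SMARTA cells, where closed regions are lower by definition, so part of the gap follows from the call. In all 31 closed regions each library without SMARTA cells lay above each library with them. With 3 libraries per group this largely comes with the call and adds no support to it. Such complete separation downward was seen in 51 of the 131 regions and in 18.5% of all regions. Complete separation upward, named below for some starts that did not pass, was seen in 10 of the 131 and in 15.7% of all regions. Replicate 2 with SMARTA cells, the shallowest library, was the lowest of its group in 15 of the 31 closed regions. The same held for 48.8% of the closed regions of the whole table.

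RefSeq promoters (GRCm38.p6) matched 9 of the 10 members by symbol, Dusp4 being the other. The sequences below are shown because their genes differ at the start: Spry2, where the region beside the start closed, Dusp10, where it opened, and Dusp5, which had the strongest closed region of the set while its start did not pass. Each is the 250 bases before the start, 5′ to 3′ on the strand of the gene, and capitals mark a motif.
Spry2 (chr14:105896820-105897069, minus strand): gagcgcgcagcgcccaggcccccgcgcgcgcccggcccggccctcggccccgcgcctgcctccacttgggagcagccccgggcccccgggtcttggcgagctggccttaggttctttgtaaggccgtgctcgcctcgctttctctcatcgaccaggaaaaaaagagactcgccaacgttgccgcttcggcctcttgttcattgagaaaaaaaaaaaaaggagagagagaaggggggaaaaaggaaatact
Dusp10 (chr1:184034131-184034380, plus strand): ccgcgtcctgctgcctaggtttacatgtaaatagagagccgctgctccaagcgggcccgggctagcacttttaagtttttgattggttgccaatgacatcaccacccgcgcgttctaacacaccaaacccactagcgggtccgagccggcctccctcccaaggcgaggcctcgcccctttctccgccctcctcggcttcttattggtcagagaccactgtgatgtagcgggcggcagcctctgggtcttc
Dusp5 (chr19:53528895-53529144, plus strand): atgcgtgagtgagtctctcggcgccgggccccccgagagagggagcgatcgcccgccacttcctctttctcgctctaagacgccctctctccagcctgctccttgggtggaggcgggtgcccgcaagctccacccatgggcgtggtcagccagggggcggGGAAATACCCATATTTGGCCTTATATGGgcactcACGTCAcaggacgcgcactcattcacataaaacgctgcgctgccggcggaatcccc

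The motifs searched on both strands of the 300-base window, which runs on to 50 bases after the start, were AP-1 (TGANTCA), CRE (TGACGT), ETS (CCGGAA), NFAT (TGGAAA), RUNX (TGTGGT), NF-kB (GGG, then 3 or 4 bases, then TTCC), E-box (CACGTG) and the serum response element bound by SRF (CC, then 6 bases of A or T, then GG). The Dusp5 promoter holds 2 SRF matches, CCATATTTGG beginning 82 bases before the start and CCTTATATGG beginning 72 bases before it, and 1.52% of 21262 promoters hold any. It also holds a CRE 56 bases before the start (8.49% of promoters) and an NF-kB match that overlaps the first SRF match (9.51%). SRF is a target of ERK signalling through its partner proteins of the ETS family. In the Dusp10 and Spry2 stretches as printed none of the 8 motifs was found, and Spry2 has an ETS match after the start (18.7% of promoters). Among the others, Dusp2 holds an E-box (7.84%), Rasa3 an NF-kB match, and Spry1, Spred1, Rasa2 and Dusp6 none of the 8. A match describes the letters and not a bound site. The 250 bases at Dusp5 and Dusp10 lie wholly within a tested region. Those of Spry1 and Spry2 are overlapped by none, the nearest region at Spry2 being centred 0.57 kb upstream of the start.

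Spry2 encodes a Sprouty protein, an ERK-induced inhibitor of receptor signalling to RAS (chromosome 14, 105891947 to 105896819). It had the largest share of closed regions: 6 of 9 closed, none opened, and all 9 folds were negative. Among 3125 genes with at least 7 regions, 13 (0.416%) had as large a closed share, a bound set at the value of Spry2 itself. The strongest lay 9.99 kb downstream of the start (chr14:105886624-105887024). It stood at 5.13, 4.39 and 4.68 log2 CPM in the 3 libraries without SMARTA cells and at 3.35, 2.65 and 2.39 with them (log2 fold -1.93 ± 0.27 SE, edgeR adjusted p = 0.0016). The groups did not overlap, and the lowest library without SMARTA cells lay above the highest with them. At chr14:105982027-105982427, 85.4 kb upstream, the mean level was 1.31 ± 0.03 log2 CPM without SMARTA cells and -0.55 ± 0.83 with them (SD, n = 3), and the authors listed a peak in all 3 libraries without SMARTA cells and in none with them. A region at chr14:105895577-105895977 inside the gene fell from 4.76 ± 0.11 to 3.71 ± 0.43. At chr14:105805273-105805673, far downstream, the fold was -1.16 ± 0.25, and it did not pass without replicate 2 lacking SMARTA cells (adjusted p = 0.055).

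Spry2 was also the gene whose start closed. The region chr14:105897192-105897592, its most accessible one, stood at 6.03, 5.68 and 5.66 log2 CPM without SMARTA cells and at 5.42, 5.29 and 4.67 with them. The fold was -0.64 ± 0.18 (edgeR adjusted p = 0.035), and the groups did not overlap. It did not pass without replicate 3 with SMARTA cells or without any 1 of the libraries lacking them (adjusted p from 0.060 to 0.13). The count of 6 closed regions fell to 3 when replicate 2 lacking SMARTA cells was dropped. Summed over its 9 regions, Spry2 stood at 7.44, 7.08 and 7.10 log2 CPM without SMARTA cells and at 6.60, 6.36 and 5.83 with them. That sum fell by 0.92 on the log2 scale (SE 0.17, edgeR adjusted p = 0.012 over 15612 genes), the largest change of the 10 members, and it passed in all 6 fits that left 1 library out.

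Spry1, the other Sprouty gene (chromosome 3, 37639947 to 37644599), held closed regions downstream and none at its start. Its most accessible region (chr3:37654143-37654543), 14.4 kb downstream of the start, stood at 4.88, 5.53 and 5.46 log2 CPM without SMARTA cells and at 4.31, 3.54 and 4.31 with them (-1.22 ± 0.23, edgeR adjusted p = 0.0057). The strongest (chr3:37675307-37675707), 35.6 kb downstream, went from 1.67, 2.02 and 2.43 to -0.51, 0.37 and -0.32 (-2.32 ± 0.31, adjusted p = 0.0011). Its neighbour chr3:37672326-37672726 had the same fold. Both of these weak sites had a listed peak in the 3 libraries without SMARTA cells and in none with them, and all 3 closed regions of Spry1 passed whichever library was left out. At the start (chr3:37640011-37640411) the libraries overlapped, from 4.18 to 4.30 without and from 4.05 to 4.54 with SMARTA cells (0.07 ± 0.16, edgeR adjusted p = 0.81). The summed counts of the gene fell by 0.70 on the log2 scale (SE 0.14, adjusted p = 0.016), from 6.42 ± 0.22 to 5.70 ± 0.28 log2 CPM. Without its most accessible region the sum had a fold of -0.25 and did not pass (adjusted p = 0.25), and without replicate 2 or 3 of the group without SMARTA cells it did not pass either (0.060 and 0.061).

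Spred1 encodes a Sprouty relative that brings the RAS inactivator neurofibromin to the membrane (chromosome 2, 117121071 to 117182279). Of its 7 regions 1 closed, 15.6 kb upstream of the start (chr2:117105256-117105656; 2.31 ± 0.27 to 1.51 ± 0.17 log2 CPM, -0.81 ± 0.21, edgeR adjusted p = 0.029). That call was lost without replicate 3 with SMARTA cells or without any 1 of the libraries lacking them (adjusted p from 0.055 to 0.093). The start region (chr2:117120645-117121045) stood at 5.68, 5.79 and 5.61 without SMARTA cells and at 5.70, 5.55 and 5.67 with them, an overlap (-0.05 ± 0.08, adjusted p = 0.74).

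At both RASA genes the start did not pass and changes lay elsewhere. Rasa2 (chromosome 9, 96539300 to 96631612), a GTPase-activating protein for RAS, held 4 closed regions among 17 and no opened one. The 4 were weak sites, with mean levels without SMARTA cells from 0.86 to 2.32 log2 CPM and folds from -1.12 to -0.83. The strongest (chr9:96577660-96578060, inside the gene) stood at 1.86, 1.39 and 1.69 log2 CPM without SMARTA cells and at 0.78, 0.50 and 0.45 with them (edgeR adjusted p = 0.0099). The start region (chr9:96631344-96631744) was the most accessible of the gene and had a fold of 0.15 ± 0.07 (adjusted p = 0.16), although each library with SMARTA cells, from 6.31 to 6.39, lay above each one without, from 6.11 to 6.25. The Rasa2 count was 0 without replicate 3 with SMARTA cells (the strongest region then at adjusted p = 0.058), 1 and 2 when replicate 3 or replicate 1 lacking them was dropped, and 2 under loess scaling, which follows the trend of the fold with accessibility.

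Rasa3 (chromosome 8, 13567218 to 13677587), a GTPase-activating protein for both RAS and RAP, held 3 closed and 3 opened regions among 23. A closed region lay beside opened ones toward the far end of the gene. The region chr8:13602309-13602709, 75.1 kb from the start, stood at 3.93, 4.51 and 4.33 log2 CPM without SMARTA cells and at 2.56, 1.91 and 2.20 with them (-2.05 ± 0.23, edgeR adjusted p = 0.00054). It carried a listed peak in all 3 libraries without SMARTA cells and in none with them. Just beside it, chr8:13600259-13600659 went the other way, from 5.55, 5.79 and 5.74 to 6.08, 6.29 and 6.09 (0.46 ± 0.09, adjusted p = 0.0084). Both calls passed whichever library was left out. A further opened region, chr8:13594832-13595232, had a fold of 0.49 ± 0.13, and an intergenic closed one upstream, chr8:13689312-13689712, had -1.03 ± 0.22. The first did not pass without replicate 3 with SMARTA cells or any 1 library lacking them (adjusted p from 0.079 to 0.087). The other did not pass without replicate 3 with SMARTA cells or replicate 2 or 3 lacking them (0.050 to 0.058). The remaining opened region, chr8:13619466-13619866, had a fold of 0.86 ± 0.24 (edgeR adjusted p = 0.04). The remaining closed one, chr8:13649099-13649499, had -0.60 ± 0.18 (adjusted p = 0.046), and both lay inside the gene. The closed count fell to 1 when replicate 2 or 3 lacking SMARTA cells was dropped, and the opened count fell to 1 when any 1 library of that group was. At the start (chr8:13677477-13677877) the libraries with SMARTA cells, from 6.47 to 6.66, lay above those without, from 6.24 to 6.42, but the fold of 0.22 ± 0.07 did not pass (adjusted p = 0.070). The summed counts overlapped between groups (8.59 ± 0.18 against 8.56 ± 0.05 log2 CPM, adjusted p = 0.87).

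**Figure D2:**
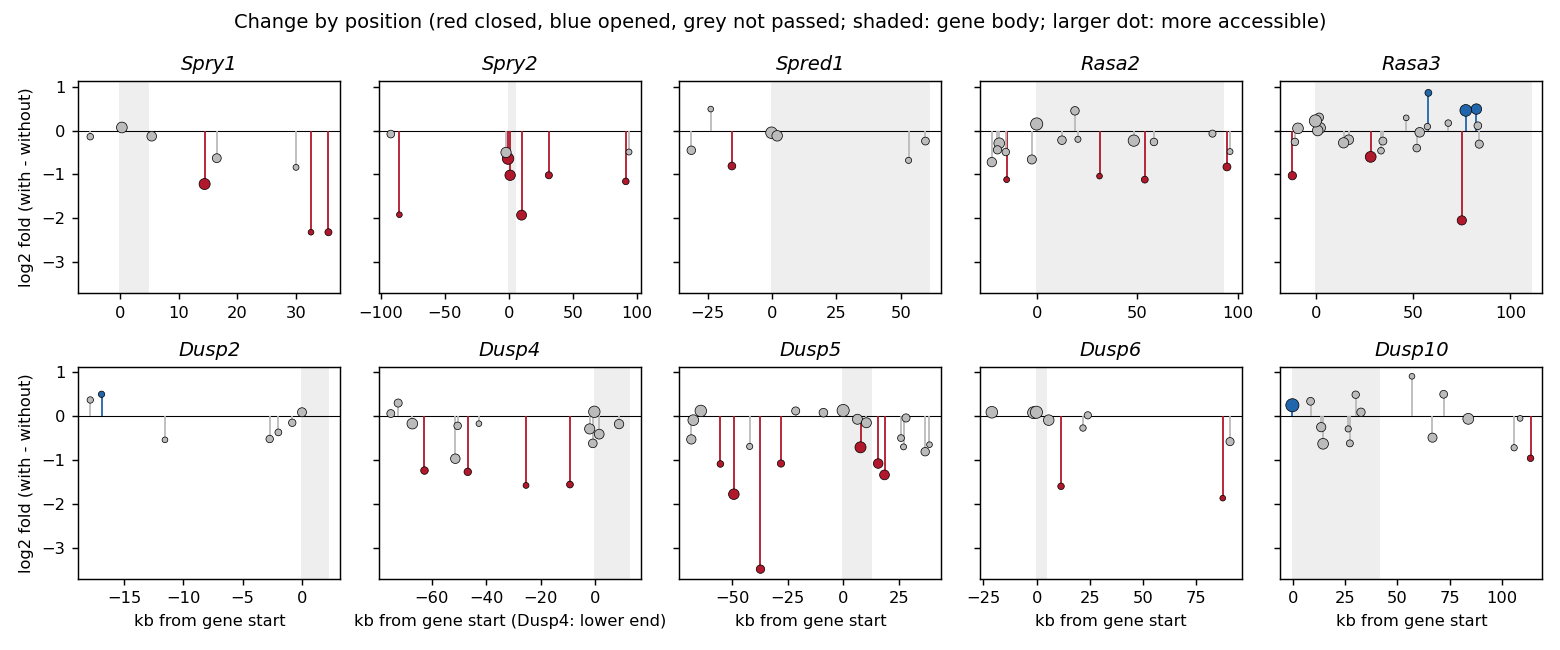
Each panel is 1 gene, with the distance of its regions from the transcription start in kb on the x axis (upstream negative; from the lower end of the gene for Dusp4) and the log2 fold on the y axis. The shaded band is the gene body and larger dots are more accessible regions; the deepest point, -3.49, lies 37.4 kb upstream of Dusp5.

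Dusp5 encodes a nuclear phosphatase selective for ERK and is itself induced by ERK (chromosome 19, 53529145 to 53541809). Of its 21 regions 7 closed and none opened, and 6 of the 7 were intergenic. The site chr19:53491571-53491971, 37.4 kb upstream, had the largest fold of the whole set: 4.25, 4.60 and 4.53 log2 CPM without SMARTA cells and 1.61, 0.44 and 0.80 with them. The deposited counts behind these levels were 379, 630 and 555 without SMARTA cells and 58, 21 and 44 with them. That is a log2 fold of -3.49 ± 0.29 (edgeR adjusted p = 0.00023), or 11.2-fold lower, and over the fits that left 1 library out it ran from -3.89 to -3.29. The authors' fold enrichment of the peak there was 10.2, 12.1 and 11.5 in the libraries without SMARTA cells. With them it was 5.48 in replicate 1 and 2.39 in replicate 3, and replicate 2 had no listed peak.

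A further upstream site of Dusp5, chr19:53479567-53479967, stood at 5.65, 5.96 and 5.59 log2 CPM without SMARTA cells and at 4.19, 3.20 and 4.27 with them (-1.78 ± 0.23, edgeR adjusted p = 0.0011). Downstream of the gene, chr19:53547548-53547948 went from 4.66 ± 0.09 to 3.26 ± 0.54 (-1.34 ± 0.23). Far upstream, chr19:53473486-53473886 had a fold of -1.09 ± 0.23, which did not pass without replicate 2 lacking SMARTA cells (adjusted p = 0.052). The start (chr19:53528883-53529283), where the SRF and CRE matches lie, stood at 6.47, 6.65 and 6.58 without SMARTA cells and at 6.68, 6.76 and 6.68 with them. Here the libraries with SMARTA cells lay above the others, yet the fold of 0.13 ± 0.06 did not pass (adjusted p = 0.19) and turned to -0.03 under loess scaling. The summed counts fell by 0.46 on the log2 scale (SE 0.10, adjusted p = 0.028), a call lost without replicate 3 with SMARTA cells or any 1 library lacking them (0.064 to 0.11). Of the 7 closed regions 3 passed when replicate 2 lacking SMARTA cells was dropped and 4 when its replicate 3 was.

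Dusp4, an inducible nuclear phosphatase of ERK and JNK (chromosome 8, 34807610 to 34819894), held closed regions away from its gene boundary. Of its 15 regions 4 closed, all intergenic, between 9.36 and 62.7 kb from the lower end of the gene. The strongest (chr8:34781936-34782336) stood at 2.04, 1.68 and 2.11 log2 CPM without SMARTA cells and at 0.45, 0.23 and 0.56 with them (-1.58 ± 0.23, edgeR adjusted p = 0.0016), with a listed peak in 3 libraries without SMARTA cells and in none with them. At chr8:34798053-34798453 the fold was -1.56 ± 0.27 and at chr8:34744702-34745102 it was -1.24 ± 0.24, and these 3 calls passed whichever library was left out. The fourth, chr8:34760566-34760966, did not pass without replicate 1 with SMARTA cells or any 1 library lacking them (0.063 to 0.14). The region 0.417 kb from the lower end (chr8:34806993-34807393) was the most accessible, from 5.93 to 6.13 without and from 6.06 to 6.17 with SMARTA cells, and did not pass (adjusted p = 0.44). Summed, Dusp4 had a fold of -0.33 ± 0.13 that did not pass (adjusted p = 0.16).

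Dusp6 encodes a cytoplasmic phosphatase of ERK that is widely used as a readout of ERK activity (chromosome 10, 99263231 to 99267489). Its 3 strongest sites by level, at the start, 1.42 kb upstream and 21.0 kb upstream, had folds from 0.08 to 0.09 and none passed. At the start (chr10:99262961-99263361) the libraries stood at 6.49, 6.54 and 6.49 log2 CPM without SMARTA cells and at 6.71, 6.40 and 6.66 with them, an overlap. Of the 9 regions 2 closed, both downstream and of low accessibility. The stronger by p (chr10:99350521-99350921), 87.5 kb from the start, went from 1.45, 1.41 and 1.90 to -0.14, -0.41 and -0.02 (-1.87 ± 0.27, edgeR adjusted p = 0.0015). The other (chr10:99274518-99274918), 11.5 kb from the start, had a fold of -1.60 ± 0.24, and both passed whichever library was left out.

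Dusp10 encodes a phosphatase of the stress kinases JNK and p38 rather than mainly of ERK (chromosome 1, 184034381 to 184075636). Its start was the most accessible region of the whole set and opened slightly. The region chr1:184034069-184034469 stood at 7.36, 7.46 and 7.34 log2 CPM without SMARTA cells and at 7.65, 7.72 and 7.54 with them (0.25 ± 0.06, edgeR adjusted p = 0.016). The groups did not overlap, but the call was lost with DESeq2, under loess scaling, and when replicate 1 or 3 lacking SMARTA cells was dropped (adjusted p = 0.053 and 0.083). One distal site of its 15 regions, chr1:184147694-184148094, closed with a fold of -0.96 ± 0.23. It did not pass without replicate 1 or 3 with SMARTA cells or replicate 2 or 3 lacking them (0.050 to 0.081). At chr1:184091117-184091517 a peak was listed in the 3 libraries with SMARTA cells and in none without, but the fold of 0.91 did not pass (adjusted p = 0.14).

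Dusp2, an inducible nuclear phosphatase of activated T cells (chromosome 2, 127336159 to 127338377), was the member without a closed region. It held 1 or 2 under loess or total-count scaling, with at least 30 counts, or with the replicate block. The same was so without replicate 1 or 2 with SMARTA cells. The mean levels of its 7 regions ran from 4.48 to 6.95 log2 CPM. The start (chr2:127335951-127336351) stood at 7.06, 6.88 and 6.79 without SMARTA cells and at 6.93, 7.21 and 6.85 with them (0.09 ± 0.10, edgeR adjusted p = 0.60). An intergenic region 16.9 kb upstream (chr2:127319069-127319469) opened by 0.50 ± 0.15 (adjusted p = 0.044), from 4.50, 4.55 and 4.81 to 5.24, 4.84 and 5.24. That call held without replicate 2 with SMARTA cells and was lost without any other library (adjusted p from 0.058 to 0.14). In 3 other upstream regions each library without SMARTA cells lay above each with them, with folds from -0.54 to -0.37, and none passed.

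**Figure D3:**
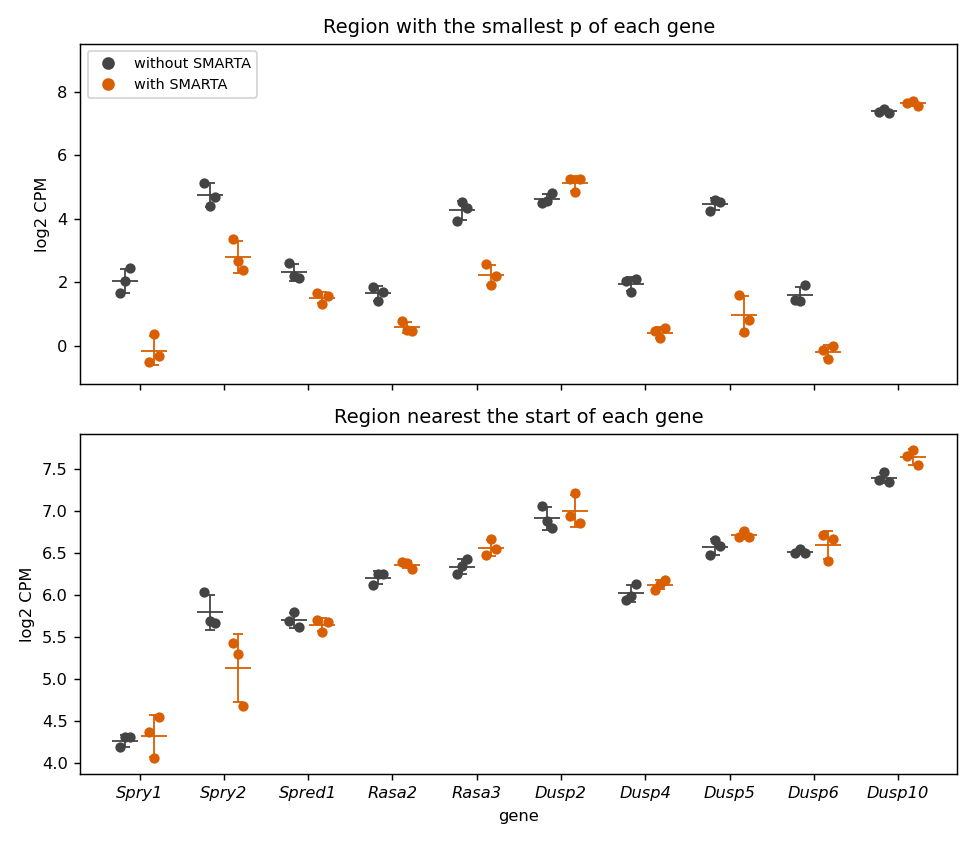
Log2 CPM per library (points) with mean and SD (dash and bar, n = 3 each) for the region with the smallest p of each gene (top) and the region nearest its start (bottom). In the top panel 8 of the 10 genes fall with SMARTA cells; in the bottom panel Spry2 alone passes downward and Dusp10 alone upward.

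With all regions of a gene summed, 3 of the 10 members fell (Spry1, Spry2 and Dusp5), none rose and 7 did not pass. Over all 15612 genes with a region, 8.06% passed, 5.92% fell and 2.15% rose in the same test. In 6 of the 10 members each library without SMARTA cells lay above each one with them, as in 16.2% of all genes. Of those 15612 genes 4919 held at least 5 regions, and each member held at least 7, so these shares compare unlike genes. Dusp5, Rasa3 and Dusp2 had the highest sums without SMARTA cells (8.86, 8.59 and 8.50 log2 CPM), which reflect the number of regions as well as their openness, and Spry1 the lowest (6.42). The genes whose sums, centred over the 6 libraries, lay closest to Spry2 were Tnn, Egr4, Ube2e3, Gzme and Aebp1 (Euclidean distance 0.235 to 0.313 log2 units, Pearson's r from 0.972 to 0.984 as a description). Of these, Egr4 and Gzme had 1 region each, and their sums did not pass.

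**Figure D4:**
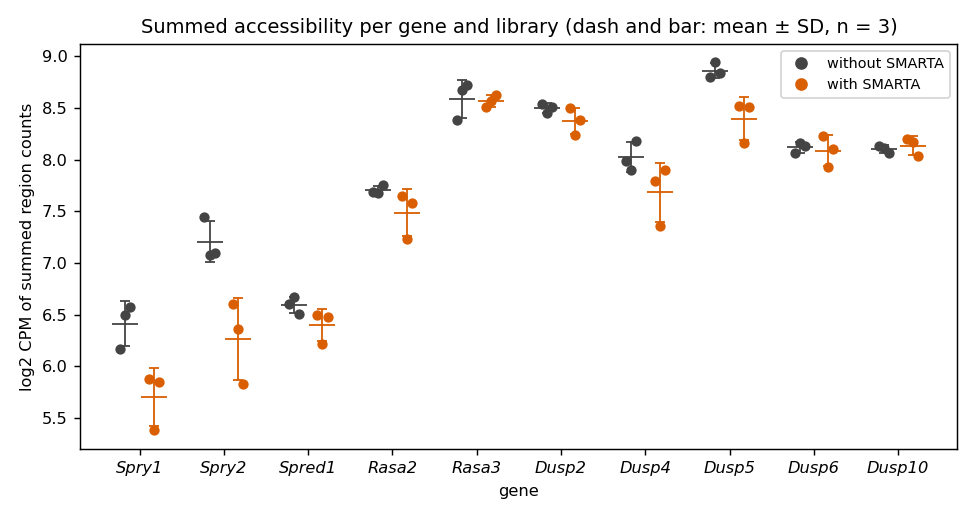
Log2 CPM of the counts summed over all regions of each gene, per library (points), with mean and SD (dash and bar, n = 3 each). The groups do not overlap at Spry1, Spry2 and Dusp5, which passed, nor at Spred1, Rasa2 and Dusp4, which did not, and overlap at Rasa3, Dusp2, Dusp6 and Dusp10.

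The authors' peak lists, called in each library alone, held a peak over 112, 122 and 123 of the 131 regions in the libraries without SMARTA cells and over 111, 92 and 106 with them. As shares these were 85.5%, 93.1% and 93.9% without SMARTA cells, against 80.5%, 90.7% and 90.2% of all regions. With them they were 84.7%, 70.2% and 80.9%, against 86.3%, 69.5% and 84.1%, so the low share in replicate 2 was near that of the whole table. A peak in all 6 lists covered 80 of the regions (61.1%, against 59.5% of the whole table). Among the closed regions 11 had a peak in all 6. In 7 regions, at Spry1, Spry2, Rasa2, Rasa3, Dusp4 and Dusp6, a peak was listed in the 3 libraries without SMARTA cells and in none with them, and all 7 had closed. That is 5.34% of the members' regions against 3.59% of all regions, of which 74.1% had closed, so such listings were found across the table. The reverse listing, in the 3 libraries with SMARTA cells and in none without, was found in 1 region (0.763%, against 0.797% of all). Replicate 2 with SMARTA cells, the library with 92, also had the fewest counts, and the part of depth in these listings was not tested.

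Other genes of the pathway were read from the same fit. Among 25 activators and kinases 23 had a region. Of their 201 regions 26 closed (12.9%) and 11 opened (5.47%), with a median log2 fold of -0.01. Of all genes with at least 5 regions, 51.1% held a closed one. Over all regions 10.4% closed and 4.68% opened, near both shares of this list. Here Ptpn11, which encodes the phosphatase SHP2 that promotes RAS activation, held 4 closed regions of 10, the strongest going from 3.43 ± 0.21 to 0.24 ± 0.74 log2 CPM (-3.23 ± 0.33, edgeR adjusted p = 0.00035). Braf, a kinase activated by RAS, held 4 closed regions of 8, the strongest with a fold of -2.13 ± 0.24. Shoc2, Grb2 and Rras2 held opened regions beside closed ones (1, 2 and 1 opened), of which those of Grb2 and Shoc2 were lost without most single libraries. By summed counts Braf (-0.28 ± 0.07) and Ptpn11 (-0.56 ± 0.14) fell and Rasgrp4, a RAS exchange factor, rose (0.51 ± 0.13). Over all genes with a region 5.92% of the sums fell and 2.15% rose. Dropping replicate 2 lacking SMARTA cells lowered the list to 16 closed and 2 opened and Braf to 2 closed, and dropping replicate 3 with them gave 16, 3 and 2.

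Among 27 other brakes 26 had a region. Of their 165 regions 25 closed (15.2%, against 10.4% of all regions) and 5 opened (3.03%, against 4.68%), with a median of -0.15. Dusp22, a phosphatase of proximal T cell signalling, held 9 closed and 1 opened region of 20, and Dusp16, a phosphatase of JNK and p38, 4 closed of 12. Their strongest regions had folds of -2.43 ± 0.26 and -2.53 ± 0.26, and the summed counts of both fell (-0.64 ± 0.14 and -0.45 ± 0.11). Dusp22 held the most closed regions of any gene in this list, so the closed share was not spread evenly over the list. Dusp1, an immediate early phosphatase, held 3 closed of 5, and Spred2, Rasa1 and Nf1 2 each, which became 1 each without replicate 3 with SMARTA cells or without replicate 2 lacking them. At 23 genes that ERK signalling induces or acts on, the median fold was -0.16. Of their 197 regions 44 closed (22.3%, against 10.4% of all regions) and 2 opened (1.02%, against 4.68%). Nab1, a partner that restrains EGR factors, held 12 closed of 18 (strongest -3.21 ± 0.25, edgeR adjusted p = 0.00021), Elk3, an SRF partner, 10 of 27 and Phlda1 6 of 10, and the sums of all 3 fell. Most of the 44 closed regions lay at these 3 genes, so the closed share of the list leans on them. Rps6ka1, Myc and Ier3 held 3 closed regions each, of which Myc had 1 without any library but replicate 1 with SMARTA cells. Dropping replicate 3 with SMARTA cells left 17 closed regions in the other brakes and 25 in the list of 23 genes. Of the latter 6 were at Nab1, 6 at Elk3 and 1 at Ier3. Dropping replicate 3 lacking SMARTA cells left 18 and 27, with 6 at Nab1, and dropping replicate 1 of that group left 7 at Nab1.

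The 6 libraries held 16595779 to 27182809 counts in the regions, and 7 to 4978 counts (median 132.5) in a region of the members. The libraries of a group correlated at 0.946 to 0.984 across regions, the lowest values being those of replicate 2 with SMARTA cells, and no pair agreed within sampling noise (lowest chi-square per degree of freedom 2.76). The labelled cell type was checked with regions inside or within 2 kb of marker genes. All 11 CD8 T cell markers had such regions (1640 to 1680 summed CPM without and 1500 to 1690 with SMARTA cells). Tyr, Tyrp1, Dct and Sox10 of 7 melanoma markers had none, nor had Lyz2, Adgre1 and Xcr1 of 9 myeloid ones, Cd79a and Ms4a1 of 5 B cell ones, or Col1a2, Cdh5 and Tek of 7 stromal ones. The summed level of 4 CD4 T cell markers ran from 132 to 142 CPM without and from 148 to 162 with SMARTA cells, so the groups did not overlap. That of the melanoma markers ran from 249 to 267 and from 261 to 299, of the myeloid ones from 92.5 to 98.1 and from 85.1 to 99.9, of the B cell ones from 71.3 to 99.3 and from 55.4 to 73.2, and of the stromal ones from 53.0 to 62.9 and from 47.4 to 55.0. The part of other cells in the results above was not tested.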

How the data were processed

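ATAC-seq read counts per region in 6 libraries were used as the authors deposited them, as whole numbers without normalization. The deposited peak lists give, per library, a score, a fold enrichment (a ratio), −log10 p-values and q-values, and the summit, all from the authors' peak caller. Per the submitters' processing notes, BWA 0.7.17, SAMtools 1.8, Picard 2.18.9, MACS2 2.1.1, DiffBind 3.4.11 and GRCm38 were used, without roles or settings. The sources used here do not give duplicate removal, read shifting or filters, and leftover duplicates would inflate counts.

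Genes and starts came from RefSeq tables of GRCm38.p6. The middle of a region decided whether it lay in a gene: 42840 did, 28357 went to a neighbour within 100 kb and 3489 to no gene. No genome sequence was used here, so only promoter sequences are shown. Counts were tested with edgeR 4.0.16 under R 4.3.3 (TMM scaling, filterByExpr, which removed 0 regions, glmQLFit, glmQLFTest, Benjamini-Hochberg). The biological coefficient of variation was 18.0%. SE is the fold divided by the root of F. The code was tested on simulated data. Counts summed per gene were fitted likewise over 15612 genes (10.1%). Alternatives were DESeq2 1.42.0, total-count, RLE and loess scaling, a mean of at least 30 counts, no filter, a replicate block, other gene assignments, a stricter threshold, and each library left out. The labels do not say whether equal replicate numbers pair the libraries.

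Named regions were, for each gene, the most accessible, the one nearest the start, the one with the smallest p and up to 4 past the threshold, and for each other list the 6 genes with the most regions past it. One of these genes is not reported here. Regions named beyond this rule were chosen after their values were seen. The genes and lists were chosen with earlier results of these data known.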

Additional observations from a re-analysis of the deposited data

How the results depend on the processing

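In all 31 closed and 5 opened regions the direction of the fold was the same under every scaling, filter, test and left-out library for which the region was fitted, while the number passing moved. Leaving out 1 library gave 6074 to 12669 regions of the whole atlas past the threshold and 19 to 38 at the 10 genes, of which 18 to 33 closed and 1 to 5 opened. With region counts summed per gene, the same fits gave 537 to 1444 genes past it, and 1 to 3 members that fell. DESeq2 passed 1917 genes by their sums, against 1259 with edgeR, and for regions 33 closed and 4 opened at the members. With the replicate block 3 regions opened, 30 closed, 1 of them at Dusp2, and 10475 passed in all. Deviations from the group means correlated at -0.02, -0.0776 and 0.0764 for equal replicate numbers and at -0.107 to 0.0858 for unequal ones. No pairing by number was seen, though 3 libraries per group cannot exclude one. The block changed no sum call of the members. Kept to regions inside the gene or within 20 kb, 22 of 91 passed (17 closed). Inside the gene 9 of 45 passed (6 closed, 3 opened), where 9.9% of all such regions closed, and 1 member fell by its sum. At an adjusted p below 0.01, 17 passed (16 closed, 1 opened). The nearest listed start gave 27 closed and 6 opened of 125 regions, without Dusp4.

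Values that turned sign did not pass in either setting. Under loess scaling the start folds became -0.11 at Dusp2, -0.03 at Dusp4, -0.03 at Dusp5 and -0.07 at Dusp6, and the sum of Rasa3 0.03. Leaving out 1 library gave start folds from -0.02 to 0.18 at Dusp2 and from -0.02 to 0.20 at Spry1, and sums from -0.10 to 0.04 at Dusp6, from -0.01 to 0.08 at Dusp10 and from -0.13 to 0.03 at Rasa3 (0.01 without replicate 2 lacking SMARTA cells). Inside the gene alone the sums were 0.04 at Spry1 and -0.37 at Dusp10, and without the most accessible region 0.03 at Dusp6 and -0.20 at Dusp10. The cause was not tested. The members' regions held 7 to 4978 counts per library, so the least accessible ones are the least precise.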

Other observations

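At the loci of the 10 genes the authors' lists held 182 separate stretches of peaks, of which 48 overlapped no tested region and have no count here. Most of these (40) were listed in 1 library. Of the 8 listed in 2 or more, the one with the highest enrichment lay near Spry2 (chr14:105922378-105923565), in all 6 lists, with a fold enrichment of up to 16.5 by the authors' peak caller. A pair of further Spry2 stretches, chr14:105954955-105956091 and chr14:105956610-105957096, were listed in the 3 libraries without SMARTA cells and in 1 with them, with enrichments of up to 8.66 and 5.56. One at Dusp5 (chr19:53502965-53503136) and one at Spred1 (chr2:117143180-117143407) were listed in 2 libraries without SMARTA cells and in none with them, and no stretch was listed in 2 or more libraries with SMARTA cells alone. These stretches were singled out after their values were seen.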
